A study of Drosophila melanogaster with 9 samples.

Results

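The genes described here encode the machinery of mitosis and chromosome segregation. They were chosen by name from a list of 51 genes. It covers the mitotic cyclins, kinases and checkpoint proteins, the anaphase-promoting complex, cohesin and condensin, and the motors, spindle and kinetochore proteins. This list and the other gene lists used below were drawn up with earlier results of these data known. A row in the gene table was found for 49 of the 51, out of 8335 genes in all, and lmg and mitch were not analysed here. The gene names follow the deposited table, so that Cdk1 is called cdc2, Aurora A is aur, Aurora B is ial, Mps1 is ald, Fzr is rap and SMC3 is Cap. The 49 genes carry 224 of the 60779 listed introns.

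Entry into mitosis depends on Cdk1 bound to a mitotic cyclin, and on removal of an inhibitory phosphate by the Cdc25 phosphatase String. The spindle checkpoint holds back the anaphase-promoting complex until every kinetochore is attached to microtubules, after which securin and cyclins are degraded, separase opens cohesin and the chromatids part. Transcripts of many of these genes are made periodically in dividing cells, so that their level in a bulk culture also reflects how many cells are dividing.

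The cells were OSCs, a cultured Drosophila line of ovarian somatic stem cells that divides in culture and contains no germ cells. The groups were siTSU cells, transfected with an siRNA against tsu, which encodes a core subunit of the exon junction complex (EJC), siAcn cells, transfected with an siRNA against Acn, which encodes Acinus, a splicing-associated partner of the EJC, and siGFP cells, transfected with an siRNA against GFP. All groups went through the same nucleofection, so no group was untransfected. Each group had 2 libraries of polyA-selected RNA, described as biological duplicates of the line. Values are RPKM, reads per kilobase of transcript scaled to the mapped reads of the library. Fold changes are on the scale of log2(RPKM + 1), with their standard error (SE), and p-values are from limma fitted to 7362 genes, those averaging 1 RPKM or more over the 6 libraries, and adjusted over all of them. All 49 genes were among those tested. No statement is made in the labels on separate cultures, so that p-values measure the spread between these libraries.

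The targeted transcripts followed the labels. tsu stood at 9.77 and 9.16 RPKM in siTSU cells and at 111.3 and 94.6 RPKM in siAcn cells, against 128.4 and 111.6 RPKM in siGFP cells. Acn stood at 96.3 and 104.5 RPKM in siTSU cells and at 16.8 and 16.6 RPKM in siAcn cells, against 98.1 and 140.4 RPKM in siGFP cells. The reads behind the scale of each library came to 15.9 and 11.5 M (mega) in siTSU cells and 18.7 and 13.4 M in siAcn cells, against 28.8 and 30.4 M in siGFP cells. Of 12 markers of the OSC lineage, 11 averaged 10 RPKM or more in siGFP cells, led by piwi. The germline gene vas was at or below 1.41 RPKM and the hemocyte gene Hml at or below 0.0537 RPKM in every library. Other markers of these lineages were higher. In siGFP cells the hemocyte gene crq averaged 33.1 RPKM and the germline gene bcd 4.05 RPKM, the highest for each lineage.

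The mitotic transcripts were abundant. In siGFP cells 39 of the 49 lay above 24.0 RPKM, the median of all genes tested, and 7 reached 100 RPKM or more. In order of their siGFP mean, these were polo, cdc2, stg, Bub3, fzy, CycA and CycB, between 182.7 and 105.8 RPKM. The 7 genes under 20 RPKM were cnn, ald, cid, thr, ida, Sse and rap, the lowest of them at 8.49 RPKM. Reads could be recovered for the 26 members with a single transcript length, for which a library held between 91 and 9961 reads, with a median of 1772.

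In siTSU cells most of the mitotic transcripts were lower than in siGFP cells, down to 49.0% of the siGFP mean for rod and 50.1% for Klp67A. No single gene passed the adjusted test in the fit of the 3 groups, which had no term for the replicate number. A fit with such a term did call members, and is given with the processing. In 39 of the 49 both siTSU libraries lay below both siGFP libraries, against 35.2% of all genes tested, and in none did both lie above them, against 20.0%. In 25 of the 49 both siTSU libraries lay below both siGFP libraries and the log2 fold change was -0.5 or less. Both conditions held for 12.3% of all genes tested. The median log2 fold change of the members was -0.54, with a range from -1.01 for Klp67A to 0.12 for cnn, and 47 of the 49 were below 0. Over all genes tested the median was -0.09 and the share below 0 was 60.1%. With limma 0 members were called in either direction, against 3.68% of all genes, and 28 were lower at an unadjusted p under 0.05, against 16.4% of all genes. The smallest adjusted p was 0.0568, for rod. With the siAcn libraries left out of the fit, Klp61F, mars and rod passed, with adjusted p of 0.0491, 0.0447 and 0.0491. In bulk RNA, fewer dividing cells and less of these transcripts in each dividing cell cannot be told apart.

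**Figure D1:**
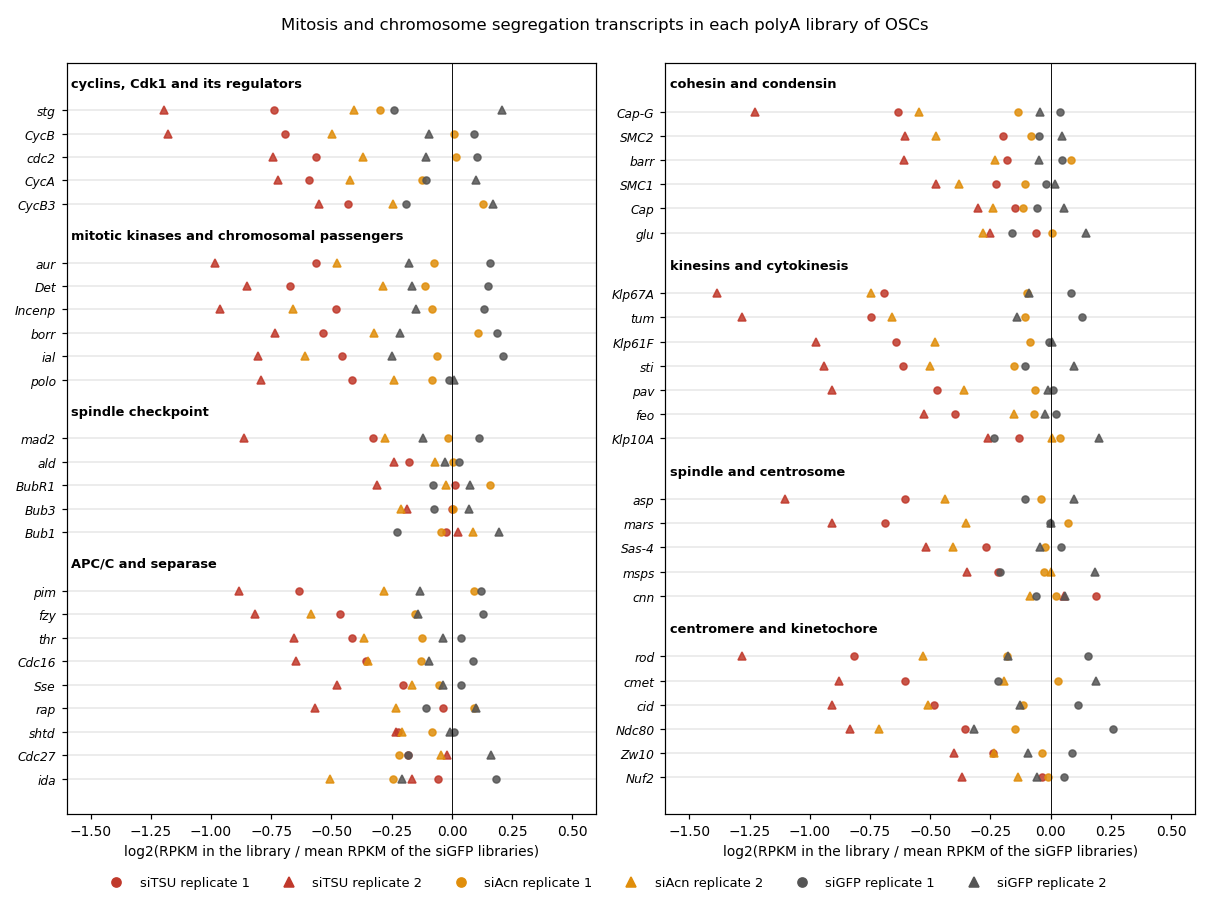
Each row is a gene, grouped by role, and each point is the log2 ratio of its RPKM in 1 library to the mean of the siGFP libraries (red siTSU, orange siAcn, grey siGFP, circles replicate 1 and triangles replicate 2). The siTSU points lie left of both siGFP points in 39 of 49 rows, and replicate 2 lies left of replicate 1 in 47 rows for siTSU and 46 rows for siAcn.

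Among the mitotic cyclins, Cdk1 and its activating phosphatase, all 5 genes were lower in siTSU cells without overlap, against 35.2% of all genes tested. Their median log2 fold change was -0.65, against -0.09 over all genes. This share and this median over all genes are also the reference for the roles that follow. CycB, the B-type cyclin that drives Cdk1 at mitotic entry, was at 65.5 and 46.7 RPKM in siTSU cells and at 106.5 and 75.0 RPKM in siAcn cells, against 112.6 and 99.1 RPKM in siGFP cells. Its siTSU mean was 53.0% of the siGFP mean (log2 -0.92 ± 0.23 SE, n = 2 each, adjusted p = 0.0772 by limma). CycA, the A-type cyclin, was at 75.1 and 68.7 RPKM in siTSU cells and at 104.0 and 84.6 RPKM in siAcn cells, against 105.0 and 121.5 RPKM in siGFP cells (siTSU log2 -0.65 ± 0.16). For both cyclins every siTSU library lay below every other library. The kinase itself, cdc2, gave 102.9 and 90.8 RPKM in siTSU cells and 153.8 and 117.6 RPKM in siAcn cells, against 163.3 and 141.0 RPKM in siGFP cells. stg, the Cdc25 phosphatase of the fly, gave 77.0 and 56.1 RPKM in siTSU cells and 104.3 and 96.7 RPKM in siAcn cells, against 108.6 and 148.0 RPKM in siGFP cells. The siTSU mean of stg was 51.8% of the siGFP mean (log2 -0.94 ± 0.21 SE, adjusted p = 0.063), although its siGFP libraries were themselves far apart. CycB3, the other B-type cyclin, had a smaller log2 difference of -0.47.

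The mitotic kinases and the chromosomal passenger complex, which places Aurora B on centromeres and the midzone, were likewise lower in siTSU cells without overlap in 6 of 6 genes, and their log2 fold changes were close together, between -0.75 and -0.60. polo, the Polo kinase, was at 137.0 and 105.6 RPKM in siTSU cells and at 172.3 and 154.5 RPKM in siAcn cells, against 181.4 and 183.9 RPKM in siGFP cells. aur, the centrosomal Aurora kinase, was at 34.3 and 25.6 RPKM in siTSU cells and at 48.2 and 36.5 RPKM in siAcn cells, against 56.6 and 44.8 RPKM in siGFP cells. The siAcn libraries of polo also lay below both siGFP libraries, while those of aur overlapped them. The 4 subunits of the passenger complex had siTSU means between 59.1% and 65.1% of the siGFP means. ial, its kinase, was at 65.7 and 51.6 RPKM in siTSU cells and at 86.4 and 59.0 RPKM in siAcn cells, against 104.4 and 75.9 RPKM in siGFP cells. Incenp, its scaffold, was at 61.6 and 44.1 RPKM in siTSU cells and at 81.2 and 54.5 RPKM in siAcn cells, against 94.4 and 77.5 RPKM in siGFP cells. For both, siAcn replicate 2 reached down between the siTSU libraries. borr, the Borealin subunit, was at 56.1 and 48.9 RPKM in siTSU cells and at 87.6 and 65.0 RPKM in siAcn cells, against 92.7 and 70.0 RPKM in siGFP cells. Det, the fly Survivin, was at 15.2 and 13.4 RPKM in siTSU cells and at 22.5 and 19.9 RPKM in siAcn cells, against 26.9 and 21.6 RPKM in siGFP cells. Of the 6, Det had the smallest adjusted p, 0.0606 at a log2 of -0.71 ± 0.16 SE.

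The spindle checkpoint genes were closest to the siGFP level, with a median of -0.14 over 5 genes. Only mad2, which encodes the inhibitor of Cdc20 made at unattached kinetochores, met a log2 difference of -0.5 without overlap. It was at 29.4 and 20.2 RPKM in siTSU cells and at 36.5 and 30.4 RPKM in siAcn cells, against 39.8 and 33.9 RPKM in siGFP cells. BubR1 and Bub3, which join Mad2 in the mitotic checkpoint complex, overlapped between the groups. BubR1 was at 35.8 and 28.6 RPKM in siTSU cells and at 39.6 and 34.9 RPKM in siAcn cells, against 33.5 and 37.4 RPKM in siGFP cells (siTSU log2 -0.14 ± 0.16). Bub3 was at 123.9 and 108.9 RPKM in siTSU cells and at 124.4 and 107.1 RPKM in siAcn cells, against 117.6 and 130.3 RPKM in siGFP cells (siTSU log2 -0.09 ± 0.15). The siTSU and siAcn libraries of Bub3 were almost superposed. The kinase Bub1 stood at a log2 of 0.01 ± 0.17, and the kinase ald at -0.20 ± 0.12 with no overlap between siTSU and siGFP.

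The genes of the anaphase-promoting complex and separase were mixed, with a median of -0.31 and 6 of 9 lower in siTSU cells without overlap. The 2 genes at or below -0.5 were an activator and a substrate. The core subunit Cdc16 and the separase partner thr lay just short of that value. fzy, the Cdc20 activator that the checkpoint inhibits, was at 88.8 and 69.4 RPKM in siTSU cells and at 110.3 and 81.7 RPKM in siAcn cells, against 133.9 and 111.0 RPKM in siGFP cells. pim, the securin that holds separase inactive, was at 26.5 and 22.4 RPKM in siTSU cells and at 43.9 and 33.9 RPKM in siAcn cells, against 44.8 and 37.6 RPKM in siGFP cells. For fzy the siAcn libraries lay below siGFP as well, and for pim they overlapped siGFP (siTSU log2 -0.73 ± 0.18 SE, adjusted p = 0.0751). Of the core subunits, Cdc16 stood at -0.47 ± 0.16, shtd, the largest subunit, at -0.22 ± 0.12, and Cdc27 and ida at -0.09 each with overlap. The second activator, rap, stood at -0.26 ± 0.21. thr, the regulatory partner of separase, stood at -0.49 ± 0.16 and the protease Sse at -0.31 ± 0.15, neither with overlap between siTSU and siGFP.

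For cohesin, which holds sister chromatids together, and condensin, which compacts them, the median was -0.37 and 5 of 6 genes were lower without overlap. Cap-G, a non-SMC subunit of condensin, stood apart from the other 5, which lay between -0.40 and -0.15. It was at 22.2 and 14.7 RPKM in siTSU cells and at 31.4 and 23.6 RPKM in siAcn cells, against 35.5 and 33.5 RPKM in siGFP cells (siTSU log2 -0.89 ± 0.22 SE, adjusted p = 0.0776). SMC1 of cohesin was at 70.0 and 58.9 RPKM in siTSU cells and at 76.1 and 62.9 RPKM in siAcn cells, against 80.8 and 83.0 RPKM in siGFP cells. SMC2 of condensin was at 74.9 and 56.6 RPKM in siTSU cells and at 81.4 and 61.8 RPKM in siAcn cells, against 83.2 and 88.9 RPKM in siGFP cells. For both SMC genes the siTSU and siAcn libraries were interleaved by replicate number, and both groups lay below siGFP. The remaining SMC subunits, Cap at -0.22 ± 0.13 and glu at -0.15 ± 0.17, and the condensin subunit barr at -0.39 ± 0.18 had smaller differences than Cap-G.

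The kinesins and cytokinesis genes had the lowest median, -0.76, and the member with the lowest log2 value. Klp67A, a kinesin that shortens spindle microtubules, was at 34.5 and 21.4 RPKM in siTSU cells and at 52.0 and 33.2 RPKM in siAcn cells, against 59.1 and 52.3 RPKM in siGFP cells. Its siTSU mean was 50.1% of the siGFP mean (log2 -1.01 ± 0.28 SE, adjusted p = 0.0947), and siAcn replicate 2 came below siTSU replicate 1. Klp61F, the bipolar kinesin that pushes spindle poles apart, was at 47.2 and 37.6 RPKM in siTSU cells and at 69.4 and 52.9 RPKM in siAcn cells, against 73.4 and 74.1 RPKM in siGFP cells (siTSU adjusted p = 0.0633). The centralspindlin pair that organises the cleavage furrow consists of the kinesin pav and its partner tum. tum was at 43.7 and 30.1 RPKM in siTSU cells and at 68.1 and 46.4 RPKM in siAcn cells, against 80.1 and 66.4 RPKM in siGFP cells, which put its siTSU mean at 50.4% of siGFP. pav was at 52.5 and 38.7 RPKM in siTSU cells and at 69.5 and 56.7 RPKM in siAcn cells, against 73.2 and 72.2 RPKM in siGFP cells. Both partners were thus lower, tum (log2 -0.99 ± 0.25) by more than pav (-0.68 ± 0.18), with overlapping errors. sti, the citron kinase of the contractile ring, was at 37.5 and 29.9 RPKM in siTSU cells and at 51.6 and 40.5 RPKM in siAcn cells, against 53.3 and 61.4 RPKM in siGFP cells. feo, which bundles antiparallel microtubules of the midzone, stood at -0.46 ± 0.12, and Klp10A, a microtubule depolymerase, overlapped siGFP at -0.18 ± 0.17.

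For the spindle and centrosome genes the median was -0.38, and 4 of 5 were lower in siTSU cells without overlap. asp, a microtubule-binding protein of spindle poles, was at 18.8 and 13.3 RPKM in siTSU cells and at 27.8 and 21.2 RPKM in siAcn cells, against 26.6 and 30.7 RPKM in siGFP cells (siTSU log2 -0.81 ± 0.21). mars, a spindle protein related to vertebrate HURP, was at 18.8 and 16.2 RPKM in siTSU cells and at 31.9 and 23.7 RPKM in siAcn cells, against 30.3 and 30.3 RPKM in siGFP cells (siTSU log2 -0.76 ± 0.17 SE, adjusted p = 0.0627). In both genes the siAcn libraries overlapped siGFP and the siTSU libraries lay below all others. cnn, the scaffold of the pericentriolar material, was the exception, at 20.2 and 18.5 RPKM in siTSU cells and 18.0 and 16.8 RPKM in siAcn cells, against 17.0 and 18.5 RPKM in siGFP cells. Its groups overlapped between siTSU and siGFP at a log2 of 0.12 ± 0.13. The centriole gene Sas-4 stood at -0.38 ± 0.17 and the microtubule polymerase msps at -0.27 ± 0.16.

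At the centromere and kinetochore the median was -0.59 with 5 of 6 genes lower without overlap. rod, a subunit of the RZZ complex that recruits checkpoint proteins and dynein, had the smallest adjusted p of all members. It was at 12.5 and 9.05 RPKM in siTSU cells and at 19.4 and 15.2 RPKM in siAcn cells, against 24.5 and 19.5 RPKM in siGFP cells, so that its siTSU mean was 49.0% of the siGFP mean (log2 -0.97 ± 0.21 SE). Its partner in the complex, Zw10, stood at -0.31 ± 0.14. cmet, a kinesin related to vertebrate CENP-E, was at 20.0 and 16.5 RPKM in siTSU cells and at 31.1 and 26.6 RPKM in siAcn cells, against 26.1 and 34.6 RPKM in siGFP cells. cid, the centromeric histone H3 variant, was at 10.4 and 7.78 RPKM in siTSU cells and at 13.5 and 10.2 RPKM in siAcn cells, against 15.8 and 13.4 RPKM in siGFP cells. For cmet the siAcn libraries lay within the siGFP range, and for cid they reached below it. Ndc80, the microtubule-binding subunit of the outer kinetochore, was at 19.5 and 14.0 RPKM in siTSU cells and at 22.6 and 15.2 RPKM in siAcn cells, against 29.9 and 20.1 RPKM in siGFP cells. The gap between its groups was narrow and its replicates were far apart (log2 -0.54 ± 0.27), and its partner Nuf2 overlapped at -0.19 ± 0.15.

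**Figure D2:**
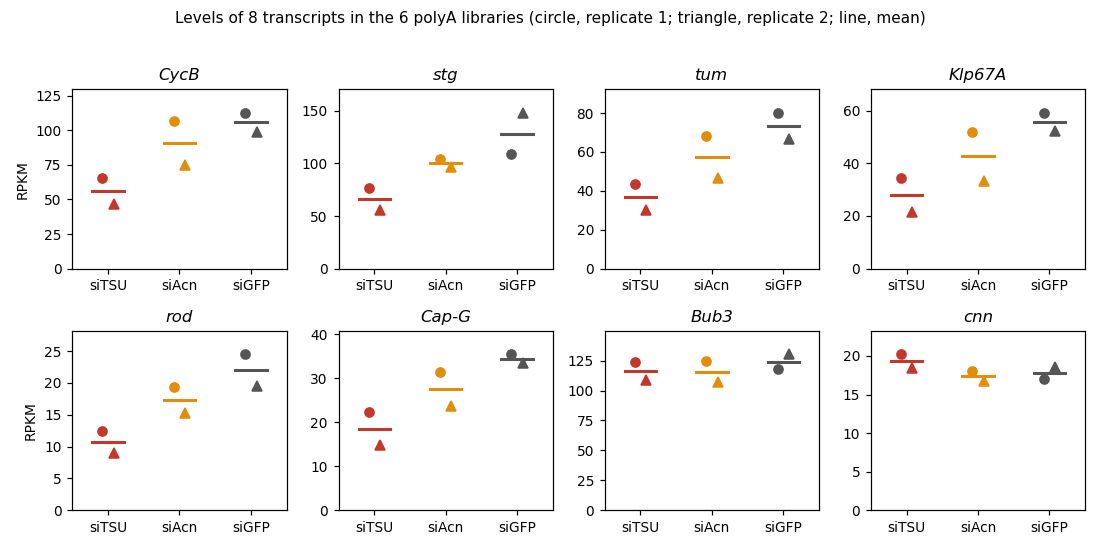
RPKM of 8 members in each polyA library on linear axes from 0, with circles for replicate 1, triangles for replicate 2 and a line at the mean of each group (siTSU, siAcn, siGFP from left to right). CycB, stg, tum, Klp67A, rod and Cap-G had their lowest group mean in siTSU, although for Klp67A siAcn replicate 2 lay below siTSU replicate 1. The groups overlapped for Bub3, and for cnn between siTSU and siGFP.

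In siAcn cells the differences from siGFP were small. Both siAcn libraries lay below both siGFP libraries for 19 of 49 members, against 20.8% of all genes tested, and above them for none, against 11.8%. After quantile normalization fewer members were lower without overlap, a share below that of all genes, as given with the processing. The median log2 fold change was -0.17, against -0.05 over all genes, the range ran from -0.41 for Klp67A to 0.07 for BubR1, and 46 of 49 values were below 0, against 60.3% of all genes. limma called 0 members, against 0.0679% of all genes, and 0 had an unadjusted p under 0.05, against 4.32% of genes that were lower at that level. Adjusted p-values were 0.773 or more. After Klp67A (-0.41 ± 0.28), the lowest values among the members given by library were those of Ndc80 (-0.38 ± 0.27), tum (-0.37 ± 0.25), fzy (-0.36 ± 0.21) and Incenp (-0.36 ± 0.25). By role the medians lay between -0.28 for kinesins and cytokinesis and -0.03 for the spindle checkpoint.

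**Figure D3:**
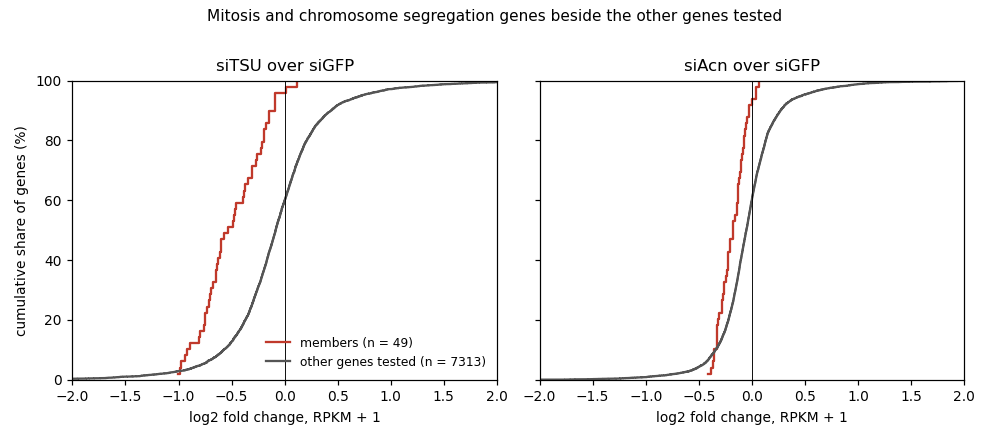
Cumulative share of genes (percent) by log2 fold change on the RPKM + 1 scale, for the 49 members (red) and the other genes tested (grey), in siTSU over siGFP on the left and siAcn over siGFP on the right. The members' curve crosses its middle at -0.54 in siTSU and at -0.17 in siAcn, and all genes tested had medians of -0.09 and -0.05.

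The comparisons of siTSU and of siAcn with siGFP share the siGFP libraries, so the knockdowns were also compared with each other. Both siTSU libraries lay below both siAcn libraries in 29 of 49 members, against 29.1% of all genes tested, and above them in 2, ida and cnn, against 20.8%. The median log2 fold change of siTSU over siAcn was -0.31, against -0.03 over all genes, and 45 of 49 were below 0, against 54.6% of all genes. limma called 0 members, against 1.01% of all genes, and 18 were lower at an unadjusted p under 0.05, against 9.82% of all genes. The largest differences among the members given by library were those of CycB (-0.68), pim (-0.64), rod (-0.64), mars (-0.63) and cmet (-0.63), with adjusted p between 0.188 and 0.259. The means were ordered siTSU below siAcn below siGFP in 42 of the 49, against 34.4% of all genes.

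The size of these differences depended on the replicate. The median log2 ratio of the members to their siGFP mean was -0.42 in siTSU replicate 1, -0.72 in siTSU replicate 2, -0.07 in siAcn replicate 1 and -0.35 in siAcn replicate 2. The siAcn replicate 2 library thus came close to siTSU replicate 1. It was the lower library in 18 of the 49 members, against 49.9% of all genes tested. Replicate 2 was the lower library in 47 of 49 members in siTSU and 46 of 49 in siAcn, but in 28 of 49 in siGFP, where the shares over all genes were 54.7%, 57.5% and 58.5%. Set against the siGFP library of the same number, siAcn replicate 1 was lower in 36 members, against 59.9% of all genes tested. For siAcn replicate 2 this held for 49 members, against 55.9% of all genes. The median log2 ratios were -0.08 and -0.32 in this order, against -0.07 and -0.04 over all genes. Without siTSU replicate 1 the median against siGFP was -0.71, and without siTSU replicate 2 it was -0.39. Without siAcn replicate 1 the siAcn median was -0.33, and without siAcn replicate 2 it was -0.06. Between the knockdowns the median was -0.45 without siTSU replicate 1, -0.16 without siTSU replicate 2, -0.17 without siAcn replicate 1 and -0.49 without siAcn replicate 2.

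The summed RPKM of the 49 members was 2124 and 1747 in siTSU cells and 2697 and 2207 in siAcn cells, against 2813 and 2791 in siGFP cells. The number of reads was lower in both knockdowns than in siGFP and lower in replicate 2 of each knockdown. The summed RPKM of the 12 OSC markers, which include piwi, was 1080 and 979 in siTSU cells and 1350 and 1140 in siAcn cells, against 1620 and 1450 in siGFP cells. piwi and tj made up most of this sum in siGFP cells. Without overlap, 8 of the 12 markers were lower in siTSU than in siGFP cells, against 35.2% of all genes, and 4 higher, against 20.0%. Fas2 was among those higher, at 195.4 and 241.2 RPKM in siTSU cells, against 11.6 and 20.1 RPKM in siGFP cells. Its siAcn libraries were at 61.9 and 77.4 RPKM. The others that were higher were ct, shg and dome, and none of the 12 was at 0. Among 6 hemocyte markers 5 had a row, with sums of 44.2 and 39.7 RPKM in siTSU cells and 50.6 and 53.7 RPKM in siAcn cells, against 49.5 and 44.6 RPKM in siGFP cells. The GATA factor srp of that list was higher in siTSU cells, at 15.8 and 17.5 RPKM, against 8.60 and 8.63 RPKM in siGFP cells, while Hml was close to 0 throughout. Germline markers, with a row for 7 of 10, summed to between 11.8 and 16.1 RPKM over the 6 libraries, and 3 muscle markers of 6 summed to between 5.59 and 7.16 RPKM. The part of depth and of these markers in the differences of the mitotic genes was not tested.

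Introns of the mitotic genes were short, and most held few reads. The EJC is deposited at exon junctions after splicing and is known in flies to aid the splicing of some introns, so the introns of the members were examined with an intron retention index, the RPKM of the intron over the RPKM of its gene. An intron entered the test where its gene averaged above 10 RPKM in siGFP cells and the intron exceeded 10% of it in at least 1 library. The median intron of the members was 65 nt long, against 107 nt over all genes tested, and the median longest intron of a gene was 86.5 nt, against 339 nt. No read in any library fell in 58 of the 224 listed intervals (25.9%, against 23.3% over all genes tested), and the median interval held 3 reads over the 6 libraries together. Only 7 intervals in 3 genes could be tested. limma called 0 of them in each comparison, where the called share of the 2848 introns tested was 2.77% in siTSU over siGFP, 1.33% in siAcn over siGFP and 0.527% in siTSU over siAcn. None of the 7 had an unadjusted p under 0.05 in any comparison, against 18.9%, 17.0% and 17.5% of the introns tested in the same order.

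The only testable intron of a member at or below a log2 of -0.5 was in Cap-G. It is the fourth intron listed for the gene, 283 nt at chr2R:9029323-9029605 of dm3 on the plus strand, and it shares its downstream end with the 5243 nt form of that intron. Its index was 12.9% and 8.37% in siTSU cells and 18.0% and 12.6% in siAcn cells, against 14.5% and 14.8% in siGFP cells. It rested on 16 and 5 reads in siTSU cells and 37 and 14 reads in siAcn cells, against 52 and 53 reads in siGFP cells. The log2 change of the index was -0.45 ± 0.32 SE in siTSU (adjusted p = 0.492) and 0.05 ± 0.32 SE in siAcn (adjusted p = 0.961), so that no higher retention was detectable beside the lower Cap-G level.

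The first intron of cnn was listed in 3 nested forms with the same reads, the shortest of them 1668 nt at chr2R:9334834-9336501 of dm3 on the minus strand. Its index was 9.52% and 7.56% in siTSU cells and 7.01% and 13.1% in siAcn cells, against 9.27% and 12.3% in siGFP cells (siTSU log2 -0.32 ± 0.41 SE, adjusted p = 0.702). The siAcn libraries enclosed the siGFP range. The other 3 intervals belonged to Sse, the separase gene, and held between 2 and 6 reads over all libraries, so that a difference was not detectable at this depth.

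The longest listed intron of a member ran from 51 nt in Sas-4 to 5243 nt in Cap-G. The 3 members with no listed intron, cid, CycB3 and feo, had log2 fold changes of -0.63, -0.47 and -0.46 in siTSU over siGFP. The 34 members with a longest intron of up to 500 nt had a median of -0.48, the 8 with one over 500 nt and up to 2 kb had -0.73, and the 4 above 2 kb had -0.45. Over all genes tested these medians were 0.04 with no intron, -0.08, -0.09 and -0.16 in the same order of length. The 4 members above 2 kb were CycA, rap, Cap-G and cnn, and they spanned the values from -0.89 for Cap-G to 0.12 for cnn. In siAcn over siGFP the medians of the members were -0.11, -0.19, -0.15 and -0.16 in the same order.

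**Figure D4:**
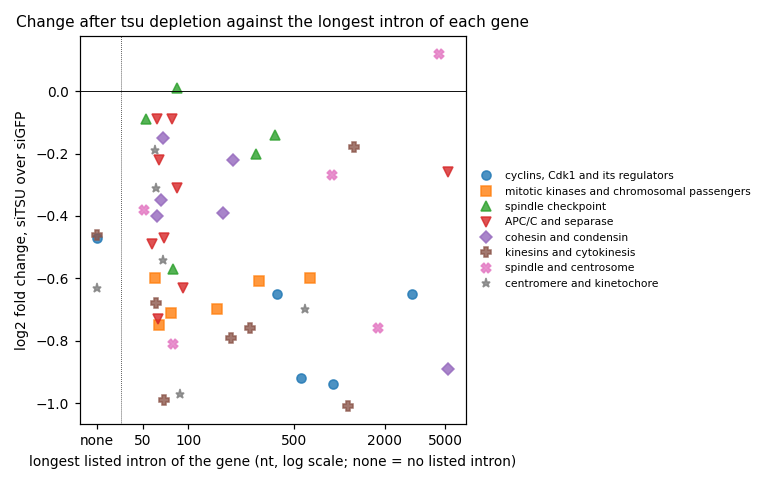
Each symbol is a member, placed by its longest listed intron (nt, log scale, with genes that list none at the left) and its log2 fold change in siTSU over siGFP, with symbols by role. Members at or below -0.5 occur at every length, from cid with no intron (-0.63) to Cap-G with 5243 nt (-0.89), while cnn with 4583 nt lies at 0.12.

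A second list of 78 genes for other parts of mitosis, of which 73 had a row and were tested, showed smaller differences with a few calls. In siTSU cells limma called 3 of the 73 lower and 0 higher, against 2.46% and 1.22% of all genes. Without overlap 46 were lower, against 35.2%, and 3 were higher, against 20.0%. The median was -0.29 in siTSU over siGFP and -0.11 in siAcn over siGFP. pds5, which regulates cohesin on chromosomes, fell to 23.8 and 23.5 RPKM in siTSU cells, against 36.1 and 37.2 RPKM in siGFP cells (log2 -0.61, adjusted p = 0.0469). mud, which anchors spindle poles to the cortex, fell to 16.3 and 13.1 RPKM, against 25.1 and 31.3 RPKM in siGFP cells (log2 -0.89, adjusted p = 0.0462). gwl, the Greatwall kinase that restrains the phosphatase opposing Cdk1, fell to 9.80 and 7.82 RPKM, against 15.9 and 16.3 RPKM in siGFP cells (log2 -0.81, adjusted p = 0.0416). In siAcn over siGFP 0 of the 73 were called by limma, against 0.0679% of all genes, and 1 was lower at an unadjusted p under 0.05, against 4.32% of all genes.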

How the data were processed

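PolyA-selected RNA from OSCs was sequenced by the authors as strand-specific paired-end libraries, 2 for each of siTSU, siAcn and siGFP. Libraries made after rRNA depletion were not analysed here. Tools named in the submitters' processing notes are Bowtie and GSNAP, and the build is dm3, all with no version. The authors kept uniquely aligned reads and deposited RPKM values per gene (8335 genes) and per intron (60779 intervals). Multiplying an intron RPKM by the length of its interval gave whole reads (within 0.1 read) for 100% of values, from which the reads per library were recovered. Each listed interval includes 35 nt of both flanking exons, so that a read that reaches from the intron into an exon can be counted. Printed coordinates leave these bases out.

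Members were matched by symbol, and BDGP6 was used only for names and lengths. The 7362 genes averaging 1 RPKM or more were tested on log2(RPKM + 1), and introns (2848) on log2 of the index with 0.1 RPKM added, in a single two-sided limma fit of the 3 groups (version 3.58.1, R 4.3.3, eBayes with trend, Benjamini-Hochberg adjusted p under 0.05). The step was tested on simulated data, drawn independently for each library. The real libraries of the same number deviated together, as given below, so the simulation does not cover that. Tables and plots were made with Python 3.11.15, pandas 2.3.3, numpy 2.4.6 and matplotlib 3.10.9. Library values are given for members past the test, for those without overlap between a knockdown and siGFP at a log2 of at least 0.5 in size (25), and for the 2 most abundant members of a role with fewer than 2 of these (4 more). cnn was added after its values were seen. The members and lists were chosen with earlier results of these data known. Alternatives varied the pseudocount, the scaling, filters and trend, used the replicate block, fitted pairs of groups alone and left out each library.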

Additional observations from a re-analysis of the deposited data

How the results depend on the processing

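Over 594 refitted values of 43 single members and introns, 550 kept their direction and side of the threshold, 38 passed it only in the alternative and 6 changed sign. The median log2 fold changes of the members kept their sign in every alternative, and the siTSU median against siGFP lay between -0.71 and -0.39. Against siGFP, limma called 271 genes in siTSU, 151 among genes with at least 10 RPKM in siGFP, and between 6 and 369 when a library was left out. The corresponding count in siAcn was 5, with 1 at 10 RPKM, 8 after quantile normalization, 3 with only the groups compared, 10 without the trend, and 0 to 1 when a library was left out. For siTSU over siAcn it was 74, with 41 at a pseudocount of 0.1 RPKM, 40 without the filter, 15 at 10 RPKM, 5 with only the groups compared, and 1 to 9 when a library was left out. Klp61F, mars and rod, 3 members, passed in siTSU over siGFP with only the groups compared (adjusted p 0.0491, 0.0447 and 0.0491), and also without siAcn replicate 1 or 2, so that the count ranged from 0 to 3 when a library was left out. After quantile normalization 7 members were lower without overlap in siAcn (16.7% of all genes) instead of 19. The causes were not tested.

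Replicate numbers are shared by the groups, but the labels tie them to no batch. Deviations from the group means correlated between libraries of the same number across genes (0.63 for siTSU with siAcn, 0.44 for siTSU with siGFP, 0.51 for siAcn with siGFP), and with 2 numbers they were not taken as pairs. With the replicate block limma called 1859, 297 and 664 genes in siTSU over siGFP, siAcn over siGFP and siTSU over siAcn, and 29, 0 and 12 members. The block gave 3 introns in siTSU over siAcn.

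Introns called numbered 79 in siTSU, 38 in siAcn and 15 in siTSU over siAcn. Without the 10% filter there were 0 in each, with the filter in a siGFP library 37 and 14 in the first pair, with the intron RPKM itself 174, 66 and 119, with only the groups compared 38, 1 and 0, and with 0.5 RPKM added 28 in siTSU over siAcn. Leaving out a library gave 0 to 38, 0 to 9 and 0. Of the member introns 0 were called in any of these. The Cap-G intron in siAcn was at -0.29 with the intron RPKM itself and between -0.20 and 0.29 when a library was left out, and that of cnn between -0.57 and 0.29. BubR1 lay between -0.30 and 0.01 and Bub3 between -0.18 and 0.00 in siTSU when a library was left out.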

Other observations

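Genes of S phase entry and DNA replication, 23 in a list chosen with earlier results known, were lower in siTSU than in siGFP cells without overlap in 19 (82.6%, against 35.2% of all genes tested), with a median log2 fold change of -0.48. In siAcn cells 7 were lower without overlap (30.4%, against 20.8%), with a median of -0.25. limma called 0 of the 23 in either comparison with siGFP, against 3.68% of all genes in siTSU and 0.0679% in siAcn. At an unadjusted p under 0.05, 12 were lower in siTSU, against 16.4% of all genes, and 1 in siAcn, against 4.32%. Between the knockdowns limma called 1 of the 23, against 1.01% of all genes. Fewer genes passed in that comparison with only the groups compared or without a library. The gene called was Cdk4, the partner of cyclin D. It was at 17.9 and 17.1 RPKM in siTSU cells, against 35.4 and 30.2 RPKM in siAcn cells (log2 -0.86, adjusted p = 0.0479 by limma). Its siGFP libraries were at 27.6 and 26.8 RPKM, between the knockdowns. RnrL, the large subunit of ribonucleotide reductase, was at 171.7 and 176.7 RPKM in siTSU cells, against 144.1 and 165.3 RPKM in siGFP cells, while the small subunit RnrS was at 121.3 and 110.2 RPKM in siTSU cells, against 205.8 and 175.9 RPKM in siGFP cells (adjusted p = 0.0745).

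Among 12 genes of the E2F and dREAM complexes, which control periodic transcription in the cell cycle, 10 were lower in siTSU than in siGFP cells without overlap (83.3%, against 35.2% of all genes tested), with a median of -0.41 in siTSU and -0.12 in siAcn. limma called 0 of the 12 in each comparison, against 3.68% of all genes in siTSU over siGFP, 0.0679% in siAcn over siGFP and 1.01% in siTSU over siAcn, and 6, 0 and 3 were lower at an unadjusted p under 0.05, against 16.4%, 4.32% and 9.82%. Rbf, the retinoblastoma protein that represses E2F targets, was nearest to the threshold, at 30.6 and 28.2 RPKM in siTSU cells, against 45.5 and 44.7 RPKM in siGFP cells (log2 -0.60, adjusted p = 0.0519). E2f2, the repressor E2F of flies, was at 21.9 and 23.0 RPKM in siTSU cells, against 19.5 and 19.6 RPKM in siGFP cells.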
